A study of Oryza sativa with 6 samples.

Results

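Invertases split sucrose into glucose and fructose, and here they were followed as transcripts in filling rice (Oryza sativa) seeds. The set held every row of the deposited expression table described as a fructofuranosidase (another name for invertase) or an invertase, together with the loci LOC_Os04g33740 and LOC_Os02g33110, which the description also found. That gave 9 genes of 91080 rows. Only 3813 features carry a description, so an invertase without one would be missed, and shares of invertase transcripts refer to these 9. By their descriptions, 6 were cell wall (insoluble) invertases, namely CIN1, CIN2, CIN3, CIN4, CIN6 and CIN7. The other 3 were neutral forms, namely CINV1 (cytosolic), NIN1 (mitochondrial) and NIN3 (chloroplastic). No row was described as vacuolar, so vacuolar invertases were not analysed here. All 9 symbols were found among the gene names of RefSeq (assembly ASM3414082v1), where CIN2 also carries the name GIF1.

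RNA came from developing seeds labelled 15 DAF of plants grown in a paddy field. There were 3 libraries of the near-isogenic line NIL-gaf1, whose genotype is labelled mutant, and 3 of the near-isogenic line NIL-GAF1, labelled wild type. Such lines have most of the genome in common apart from the region they were selected for. The labels do not give the locus that differs, and the sample titles carry the symbol gif2. Nothing in the labels says that the libraries of a line were made from different plants, so a p-value here measures only the spread between these libraries, which may be technical.

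Sucrose reaches the grain through the phloem. In cereals, cell wall invertases split it outside the cells, vacuolar forms split it in the vacuole, and neutral forms split it in the cytosol or in organelles. Sucrose synthase is the other enzyme that cleaves sucrose, giving fructose and UDP-glucose. CIN2, known as GIF1 (GRAIN INCOMPLETE FILLING 1), is known in rice for a part in carbon partitioning during early grain filling.

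Library totals ranged from 17236796 to 25402680 counts. Rows described as glutelin, prolamin, globulin or seed allergen, the storage protein transcripts of the endosperm, took 0.403%, 7.11% and 21.3% of the counts in libraries 1, 2 and 3 of the mutant, against 36.0%, 42.3% and 38.3% in libraries 1, 2 and 3 of wild type. Storage transcripts were thus a small share of mutant library 1 and differed widely between the mutant libraries. Levels of a gene are compared between lines as normalized CPM, which are counts scaled to a common library size by the trimmed mean (TMM) method, so that a fold change is relative to the typical gene. Levels of different genes are compared as FPKM, the authors' value per kilobase of transcript and library total, within a library. Over the 22937 tested features the median log2 fold change was 0.06 with TMM scaling and 1.27 when libraries were scaled to their total counts, so the scaling sets the direction of members that lie near the typical gene.

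Among the invertases, transcripts of the cytosolic CINV1 rose in the mutant, those of the organellar NIN1 and NIN3 fell relative to the typical gene (under total-count scaling their log2 fold changes were 0.68, called, and 0.64, not called), and none of the cell wall forms passed the test. Of the 9 members, 7 had enough counts to be tested, and 3 of these passed the edgeR quasi-likelihood test (Benjamini-Hochberg adjusted p under 0.05, adjusted over all tested features). Across all tested features 31.2% were called, with 15.8% higher and 15.4% lower in the mutant, so for 7 genes a count of 1 higher and 2 lower does not stand apart from the table. The median log2 fold change of the 7 was -0.06. In 4 of the 7 the lines did not overlap in normalized CPM, 2 with the mutant above (CIN7 and CINV1) and 2 with it below (NIN1 and NIN3). Among all tested features the lines did not overlap in 49%, with the mutant above in 25.3% and below in 23.8%.

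CINV1 (OS02G0550600, chromosome 2, 20717898 to 20721731, coordinates of the deposited table, whose build is not given) encodes a cytosolic invertase. Its level was 62.1, 49.7 and 40.6 normalized CPM in libraries 1, 2 and 3 of the mutant, against 27.2, 27.8 and 29.1 in libraries 1, 2 and 3 of wild type. Every mutant library lay above every wild-type library. The means were 50.8 ± 10.8 in the mutant and 28.0 ± 0.961 in wild type (SD, n = 3 each), a 1.81-fold rise (log2 fold change 0.86, SE 0.17, edgeR adjusted p = 0.0079). CINV1 was called higher in all 17 alternative settings, with log2 fold changes from 0.69 to 2.12 and adjusted p from 1.2e-04 to 0.041. The highest of these was with total-count scaling, 4.34-fold.

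NIN1 (OS03G0314800, chromosome 3, 11283343 to 11287893) is described as a mitochondrial neutral/alkaline invertase. Its level was 11.3, 11.1 and 12.2 normalized CPM in libraries 1, 2 and 3 of the mutant, against 16.2, 14.6 and 18.7 in libraries 1, 2 and 3 of wild type. The lines did not overlap, and the means were 11.5 ± 0.551 in the mutant and 16.5 ± 2.10 in wild type (SD, n = 3 each). The log2 fold change was -0.52 (SE 0.15, edgeR adjusted p = 0.033). The call was lost without mutant library 1 (adjusted p = 0.066), mutant library 2 (0.13), wild-type library 1 (0.087) or wild-type library 3 (0.11). It was also lost without a low-count filter (log2 fold change -0.37, adjusted p = 0.12) and with the DESeq2 Wald test (-0.46, adjusted p = 0.058). With total-count scaling the log2 fold change was 0.68 and NIN1 was called higher (adjusted p = 0.032).

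NIN3 (OS02G0529400, chromosome 2, 19437743 to 19442080), described as chloroplastic, had the profile closest to that of NIN1 among the 7 tested members. It was at 17.6, 17.4 and 14.4 normalized CPM in libraries 1, 2 and 3 of the mutant, against 24.4, 21.2 and 28.6 in libraries 1, 2 and 3 of wild type. All 3 mutant libraries were below all 3 wild-type libraries, with means of 16.5 ± 1.79 in the mutant and 24.7 ± 3.73 in wild type (SD, n = 3 each). The log2 fold change was -0.59 (SE 0.16, edgeR adjusted p = 0.027), and the call was lost on leaving out mutant library 2 (adjusted p = 0.075), wild-type library 1 (0.075) or wild-type library 3 (0.091). It was also lost without a low-count filter (log2 fold change -0.44, adjusted p = 0.12). With total-count scaling it was 0.64 and not called (adjusted p = 0.059).

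**Figure D1:**
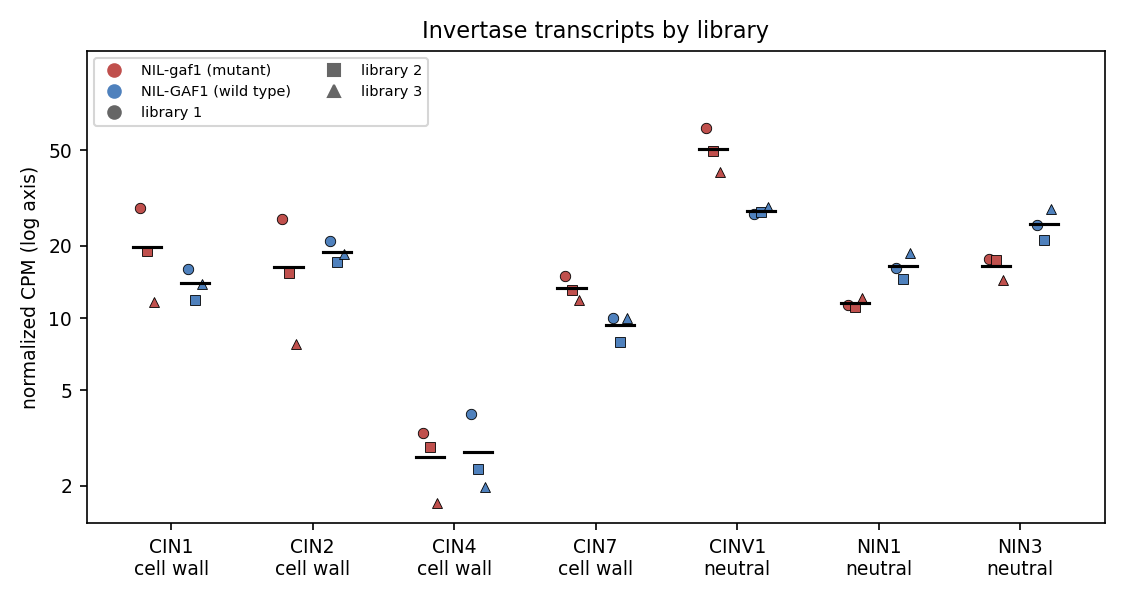
Normalized CPM (log axis) of the 7 tested invertases in each library, with NIL-gaf1 (mutant) left of NIL-GAF1 (wild type) for each gene, 1 symbol per library and a bar at the mean of 3. CINV1 and CIN7 lie higher in every mutant library, NIN1 and NIN3 lie lower (with positive fold changes under total-count scaling), and the mutant libraries of CIN1 and CIN2 spread to both sides of wild type.

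CIN1, CIN2 and CIN4 of the cell wall class spread more between mutant libraries than the neutral forms did. CIN2 (GIF1, OS04G0413500, chromosome 4, 20422171 to 20426921) had 25.8, 15.4 and 7.84 normalized CPM in libraries 1, 2 and 3 of the mutant, against 20.9, 17.2 and 18.5 in libraries 1, 2 and 3 of wild type. Mutant library 1 was above wild type and mutant libraries 2 and 3 were below it. The highest mutant library was 3.30 times the lowest, against 1.22 times in wild type. The log2 fold change was -0.20 (SE 0.37, edgeR adjusted p = 0.71), and it was 0.10 without mutant library 3 (adjusted p = 0.76) and 1.11 with total-count scaling (adjusted p = 0.053).

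CIN1 (OS02G0534400, chromosome 2, 19682544 to 19687163) had 28.7, 19.1 and 11.7 normalized CPM in libraries 1, 2 and 3 of the mutant, against 16.1, 11.9 and 13.9 in libraries 1, 2 and 3 of wild type. Mutant libraries 1 and 2 were above wild type and library 3 was just below its lowest library. The log2 fold change was 0.51 (SE 0.30, edgeR adjusted p = 0.24). When mutant library 3 was left out CIN1 passed, with a log2 fold change of 0.75 (adjusted p = 0.028), and it passed under total-count scaling as well (1.80, adjusted p = 0.004). When mutant library 1 was left out the log2 fold change was 0.15 (adjusted p = 0.68).

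CIN7 (OS09G0255000, chromosome 9, 4165397 to 4170918) was steadier. It was at 14.9, 13.1 and 12.0 normalized CPM in libraries 1, 2 and 3 of the mutant, against 9.99, 7.94 and 10.1 in libraries 1, 2 and 3 of wild type. The lines did not overlap, but the log2 fold change of 0.52 (SE 0.17) just missed the threshold (edgeR adjusted p = 0.052). It passed without mutant library 3 (adjusted p = 0.045), with the DESeq2 Wald test (0.031) and with total-count scaling (log2 fold change 1.74, adjusted p = 9.4e-04).

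The remaining cell wall members were scarce. CIN4 (OS01G0966700, chromosome 1, 42626321 to 42630366) ranged between 1.70 and 3.31 normalized CPM in mutant libraries and between 1.98 and 3.98 in wild-type libraries (log2 fold change -0.06, SE 0.37, edgeR adjusted p = 0.92). Its direction turned with single libraries, to 0.15 without mutant library 3 and 0.28 without wild-type library 1, and with total-count scaling it was 1.19 and called higher (adjusted p = 0.0497). CIN3 had 1 count in mutant library 2 and none elsewhere, and CIN6 had 1 and 4 counts in mutant libraries 1 and 2 and none elsewhere, so neither was tested. With no count, a level as high as 0.0753 to 0.102 normalized CPM (mutant libraries) or 0.205 to 0.244 (wild-type libraries) cannot be told from 0, where 3 counts per library are the limit and only counting error is covered. CIN3 (20412316 to 20415240 of chromosome 4) ends 6930 bases before CIN2 begins, and over the 6 libraries CIN2 had 2582 counts. How alike these genes are in sequence was not measured, so reads may be split between close copies.

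Among the mutant libraries, normalized CPM of every tested member but NIN1 was highest in library 1 and lowest in library 3, the mutant libraries with the smallest and the largest share of storage transcripts. Transcripts that mark seed tissues also differed between these libraries. Summed over 15 rows, glutelins and prolamins were at 1902, 42925 and 173830 normalized CPM in libraries 1, 2 and 3 of the mutant, against 459580 to 622410 in wild type. Of the 13 tested rows 1 was called lower, where 15.4% of all tested features were. The sum was below wild type in every mutant library, so a row without a call is not shown to be unchanged. The 7 rows for oleosins, late embryogenesis proteins and dehydrins, taken to mark embryo and aleurone, summed to 282, 670 and 1343 in libraries 1, 2 and 3 of the mutant, against 2563 to 3026 in wild type, and 6 of the 7 were called lower. The 4 chlorophyll a-b binding rows of the green pericarp summed to 1169, 660 and 617 in libraries 1, 2 and 3 of the mutant, against 758 to 984 in wild type, and none was called (31.2% of all tested features were called). None of these tissue rows was at 0 in every library except 1 of the glutelin and prolamin rows. Their part in the invertase values was not tested, and in whole seeds fewer cells of a type and less RNA per cell cannot be told apart.

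Ratios of members within a library do not depend on the scaling, so the make-up of the invertase transcripts can be set side by side under any scaling. The shares of the classes overlapped between lines, as did those of CIN1 and CIN4, and the shares of CIN2, CIN7, CINV1, NIN1 and NIN3 did not. Cell wall members made up 43.5% ± 5.89 of the summed invertase FPKM in the mutant and 44.7% ± 3.19 in wild type (SD, n = 3 each), and neutral members the remaining 56.5% and 55.3%. CINV1 was the most abundant of the 9 members in each of the 6 libraries. It took 36.3%, 37.5% and 39.7% of their summed FPKM in libraries 1, 2 and 3 of the mutant, against 22.6%, 26.7% and 24.0% in libraries 1, 2 and 3 of wild type. NIN1 took 7.06% to 12.7% in the mutant and 14.3% to 16.5% in wild type, and NIN3 took 7.53% to 10.3% in the mutant and 14.8% to 17.2% in wild type. CIN2 took 8.98% to 17.7% in the mutant and 17.9% to 20.4% in wild type, and CIN7 took 10.2% to 13.6% in the mutant and 8.90% to 9.67% in wild type. These shares sum to a whole and so are not independent of each other. A related but different measure is the ratio of a pair of genes. It did not overlap between lines for 52.3% of all pairs of tested, described rows with nonzero FPKM in every library. CINV1 was 4.16 ± 1.01 times NIN1 in FPKM in the mutant and 1.61 ± 0.168 times in wild type (SD, n = 3 each), and NIN1 and NIN3 stayed near equal, with a ratio of 1.03 ± 0.171 for the mutant and 0.975 ± 0.0267 for wild type.

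**Figure D2:**
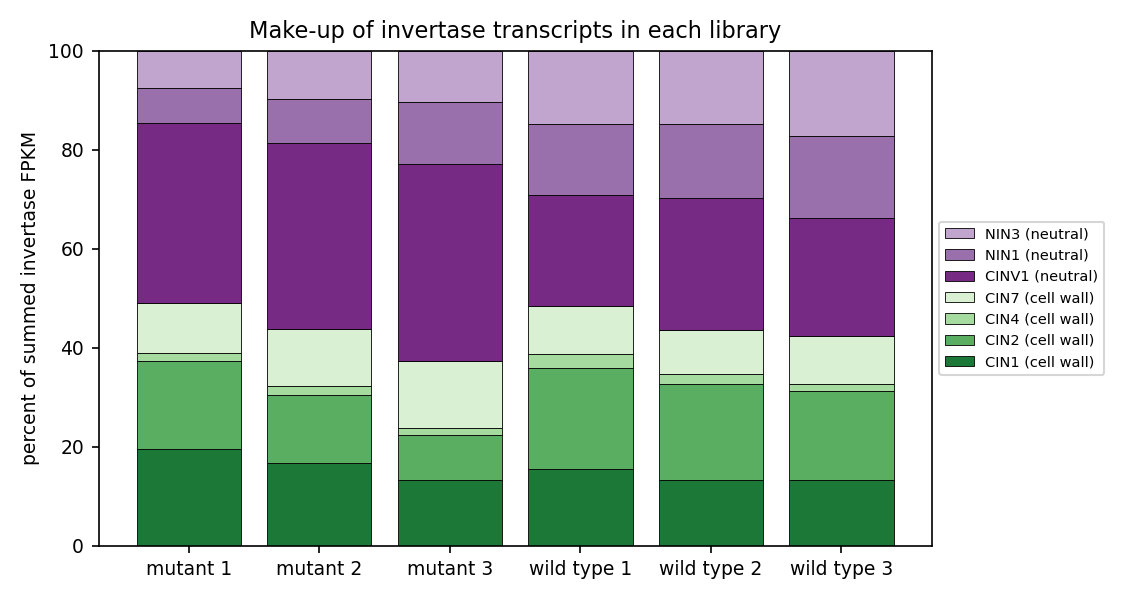
Percent of the summed FPKM of the invertases held by each of the 7 tested members (vertical axis) in each library, with mutant libraries on the left, cell wall forms in green and neutral forms in purple. The border between green and purple lies at 37.3% to 49.1% in mutant and 42.3% to 48.3% in wild-type libraries, while the CINV1 band is wider in every mutant library.

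Inside the cell wall class CIN1 and CIN2 stood in opposite order in the lines. CIN2 led the class in all 3 wild-type libraries and CIN1 in mutant libraries 1 and 2, while CIN7 led it in mutant library 3. In FPKM, CIN1 was above CIN2 in each mutant library, at 25.7 and 23.3 in library 1, 14.2 and 11.6 in library 2, and 6.45 and 4.34 in library 3. In each wild-type library CIN1 was below CIN2, at 5.47 and 7.17 in library 1, 3.55 and 5.16 in library 2, and 4.30 and 5.78 in library 3. The ratio of CIN1 to CIN2 was 1.10, 1.23 and 1.49 in the mutant libraries, against 0.762, 0.689 and 0.744 in the wild-type libraries. Such a separation was common. Of all pairs of tested, described rows with nonzero FPKM in every library, 52.3% had ratios that did not overlap between lines. This pair was added after the values were seen (two-sided exact permutation p = 0.1, adjusted p = 0.23 over the 21 pairs). Among the mutant libraries both genes were highest in library 1 and lowest in library 3, and their ratio varied less between these libraries than either level.

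**Figure D3:**
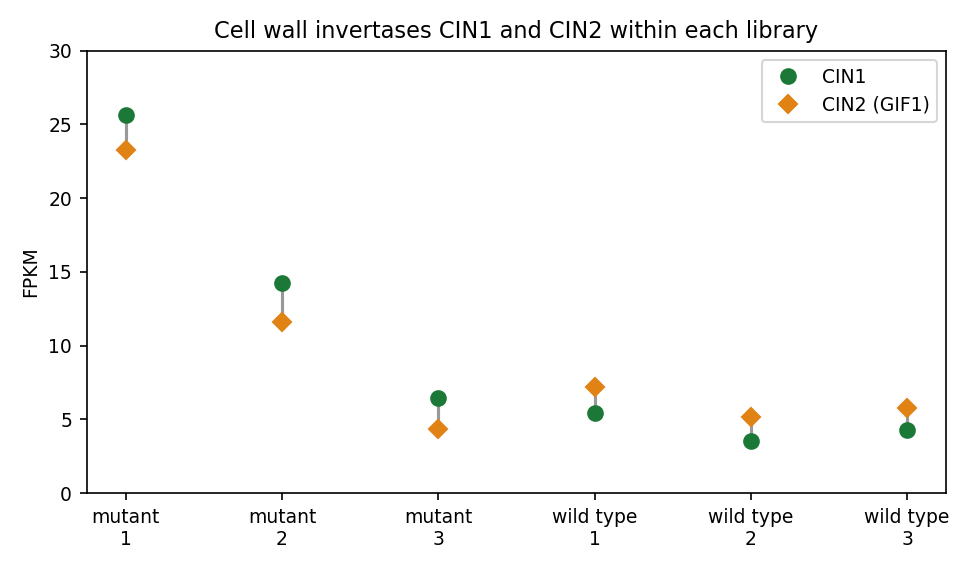
FPKM of the cell wall invertases CIN1 (circles) and CIN2 (diamonds) in each library, with mutant libraries on the left and a line joining the pair. CIN1 lies above CIN2 in the 3 mutant libraries and below it in the 3 wild-type libraries, also in mutant library 3, where both are near wild-type FPKM.

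The members with the highest mean FPKM over the 6 libraries in each class were CIN1 and CINV1, and the ratio of CIN1 to CINV1 overlapped between lines. Its mean log2 value was -1.21 ± 0.342 in the mutant and -0.79 ± 0.236 in wild type (SD, n = 3 each), a difference of -0.41 (two-sided exact permutation p = 0.2). Of all 21 pairs of tested members, 9 had ratios that did not overlap between lines. For all tested, described rows with nonzero FPKM in every library the share was 52.3% of pairs. Each of the 9 reached the smallest p that 3 against 3 allows (two-sided exact permutation p = 0.1, adjusted p = 0.23 over the 21 pairs). The largest differences in mean log2 ratio were those of CINV1 over NIN3 (1.42) and CINV1 over NIN1 (1.35), followed by CIN2 over CINV1 (-1.20). The lines did not overlap for CIN1 over CIN2 either (0.79).

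Both total-count scalings moved the fold changes of all tested members upward from their TMM values. Under total-count scaling the calls were 5 higher and 0 lower of 7, where 75.6% of all features were called, 71.9% higher and 3.76% lower. With total-count scaling after rows of storage proteins and seed allergens had been removed, CINV1 (log2 fold change 1.52), CIN1 (1.19) and CIN7 (1.16) were called higher, and NIN1 (0.11) and NIN3 (0.06) were not called, where 52.5% of all features were called, 45.7% higher and 6.77% lower.

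**Figure D4:**
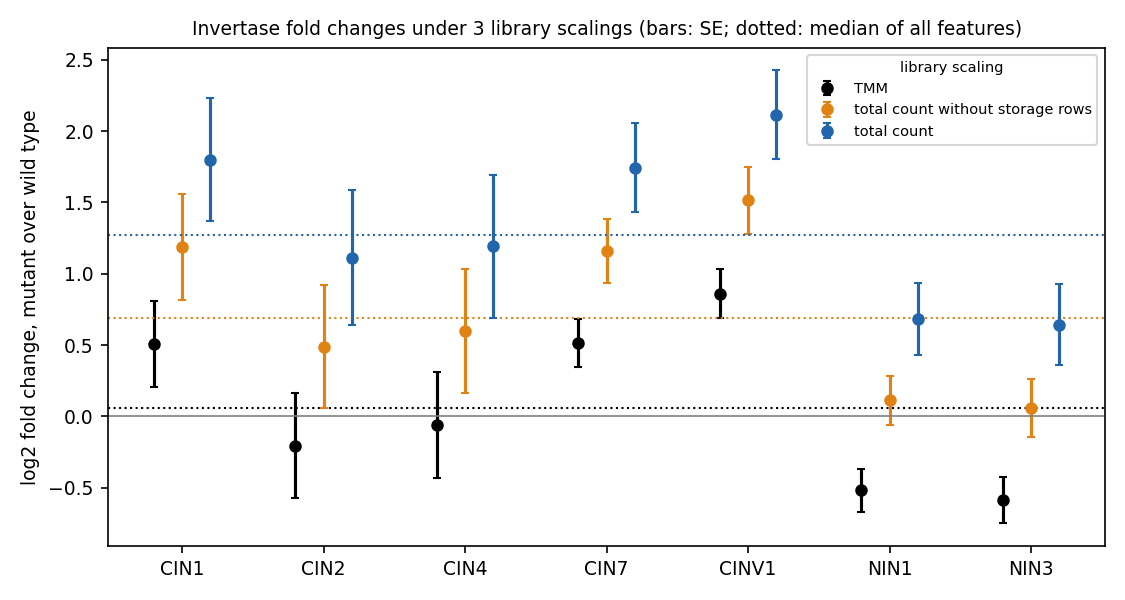
Log2 fold change, mutant over wild type, of the 7 tested invertases with its SE under TMM scaling, total-count scaling without storage rows, and total-count scaling. Dotted lines mark the median of all features under the same scaling (0.06, 0.69 and 1.27). A change of scaling moves all genes by a similar amount, so the members shift together with that line.

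Apart from the rows found in a search for inhibitors, other rows of the sucrose pathway had log2 fold changes between -2.83 (OS09G0322000) and 4.02 (SUS3). By words in the description, 40 rows were found for sucrose transport, sucrose cleavage, sucrose synthesis, hexose use and related inhibitors. Of the 40 rows 35 were tested, including 3 described as pectinesterase/pectinesterase inhibitor, a family that acts on cell wall pectin. Of the 35, 10 rose, 1 of them a pectinesterase row, 5 fell and 20 did not pass. Over all features 31.2% were called (15.8% higher and 15.4% lower), and these shares also stand beside the list counts below. Leaving out mutant library 2 left 7 rises and 2 falls (8.61% and 8.63% of all features). Without mutant library 3 there were 15 and 5 (17% and 18% of all features). Without wild-type library 1 or 3 there were 9 and 3, against 9.21% and 9.73%, or 10.4% and 10.3%, of all features. With total-count scaling 27 were called higher and 2 lower, where 71.9% of all features were called higher and 3.76% lower.

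On the supply side, SUT1, a sucrose transporter of the plasma membrane, averaged 53.1 ± 14.3 normalized CPM for the mutant and 74.5 ± 10.3 for wild type (SD, n = 3 each, edgeR adjusted p = 0.11), and SUT5 did not pass either. When mutant library 1 was left out, SUT1 was called lower (log2 fold change -0.73, edgeR adjusted p = 0.012), and under total-count scaling it was at 0.77 (not called). Of 11 tested SWEET transporters, which move sugars across membranes in both directions, 3 rose, 1 fell and 7 did not pass. Among all tested features 15.8% were called higher and 15.4% lower. The median log2 fold change of the 11 was 0.10. SWEET13 rose 2.10-fold (edgeR adjusted p = 0.0064) and SWEET6A rose 1.72-fold (0.0083). SWEET15 rose 1.52-fold (edgeR adjusted p = 0.021), but did not pass without mutant library 2 (0.088) or wild-type library 1 (0.099) or 3 (0.093). SWEET1B fell by 1.37 on the log2 scale (edgeR adjusted p = 0.048), and this did not pass without mutant library 1 (0.094) or 2 (0.15) or wild-type library 1 (0.081) or 3 (0.19). With total-count scaling the log2 fold change of SWEET1B was -0.24 (edgeR adjusted p = 0.60). SWEET11, the most abundant SWEET transcript here, averaged 977 ± 123 normalized CPM for the mutant and 1718 ± 283 for wild type (SD, n = 3 each, edgeR adjusted p = 0.076). It was called lower with the DESeq2 Wald test (adjusted p = 0.0011) and limma-voom (0.018), and under total-count scaling its log2 fold change was 0.36 (not called).

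Transcripts of the described sucrose synthases far outweighed those of the 9 described invertases. The summed FPKM of the 9 invertases equalled 6.24%, 4.35% and 3.16% of that of the 5 described sucrose synthases in libraries 1, 2 and 3 of the mutant, against 5.23%, 5.16% and 5.01% in libraries 1, 2 and 3 of wild type, so the lines overlapped. Of 4 tested sucrose synthases, SUS3 (16.3-fold) and SUS1 (3.57-fold) rose and SUS4 fell by 1.94 on the log2 scale (edgeR adjusted p = 4.2e-04, 0.001 and 0.011), with a list median of 1.30. The call of SUS4 was lost on leaving out mutant library 2 (adjusted p = 0.056).

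Among genes that use the products of cleavage, FRK2, a fructokinase that phosphorylates fructose, averaged 217 ± 51.1 normalized CPM for the mutant and 26.8 ± 3.59 for wild type (SD, n = 3 each), an 8.08-fold rise (log2 fold change 3.01, SE 0.23, edgeR adjusted p = 2.2e-04). FRK1, another fructokinase, averaged 12.4 ± 0.426 for the mutant and 13.5 ± 2.47 for wild type (SD, n = 3 each, edgeR adjusted p = 0.62). Of the 4 rows described as fructokinase or fructokinase-like, 2 rose and 1 fell (median log2 fold change 0.53). The other called rows were the fructokinase-like 2 OS03G0602600 (log2 fold change 1.19, not passing without mutant library 2, edgeR adjusted p = 0.062) and the fructokinase-like 1 OS01G0851000. Both are described as chloroplastic, and the descriptions do not say that they act on fructose. OS01G0851000 had a log2 fold change of -0.73 (edgeR adjusted p = 0.039), which did not pass without mutant library 2 (0.13) or 3 (0.06) or wild-type library 1 (0.12), 2 (0.066) or 3 (0.081) and was 0.52 under total-count scaling. HXK6, a hexokinase, averaged 56.2 ± 16.5 normalized CPM for the mutant and 22.3 ± 2.18 for wild type (SD, n = 3 each), a 2.52-fold rise (edgeR adjusted p = 0.0037). It was the 1 called of 4 tested hexokinases, whose median log2 fold change was 0.95.

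OS09G0322000, described as sugar transport protein 14, fell to 15.2 ± 3.85 normalized CPM in the mutant, against 108 ± 26.1 in wild type (SD, n = 3 each, log2 fold change -2.83, SE 0.26, edgeR adjusted p = 3.9e-04). The other 2 rows described as sugar transport proteins did not pass (log2 fold change 0.55 and 0.52), and the list median was 0.52. In sucrose synthesis, 1 of 3 rows passed (median -0.18): SPS4, a probable sucrose-phosphate synthase, fell by 0.81 on the log2 scale (edgeR adjusted p = 0.0098), and with total-count scaling its log2 fold change was 0.42 and not called. For UDP-glucose pyrophosphorylase the search by description found only the chloroplastic form OS05G0468600, and forms without a description would be missed. OS05G0468600 had a log2 fold change of 1.54 (edgeR adjusted p = 0.03), which did not pass without mutant library 1 (0.059) or 2 (0.074) or wild-type library 2 (0.093) or 3 (0.103).

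No row was described as an invertase inhibitor. The search for such proteins found 3 rows described as pectinesterase/pectinesterase inhibitor, a family of enzymes that act on cell wall pectin, and 1 of them rose (median log2 fold change 1.37). OS01G0254300 had 80, 113 and 139 counts in libraries 1, 2 and 3 of the mutant, against 1, 4 and 0 in libraries 1, 2 and 3 of wild type (log2 fold change 4.60, SE 0.75, edgeR adjusted p = 0.0035). The size of this difference rests on the few wild-type counts, with log2 fold changes of 6.27 without wild-type library 2 and 3.96 without wild-type library 3.

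**Figure D5:**
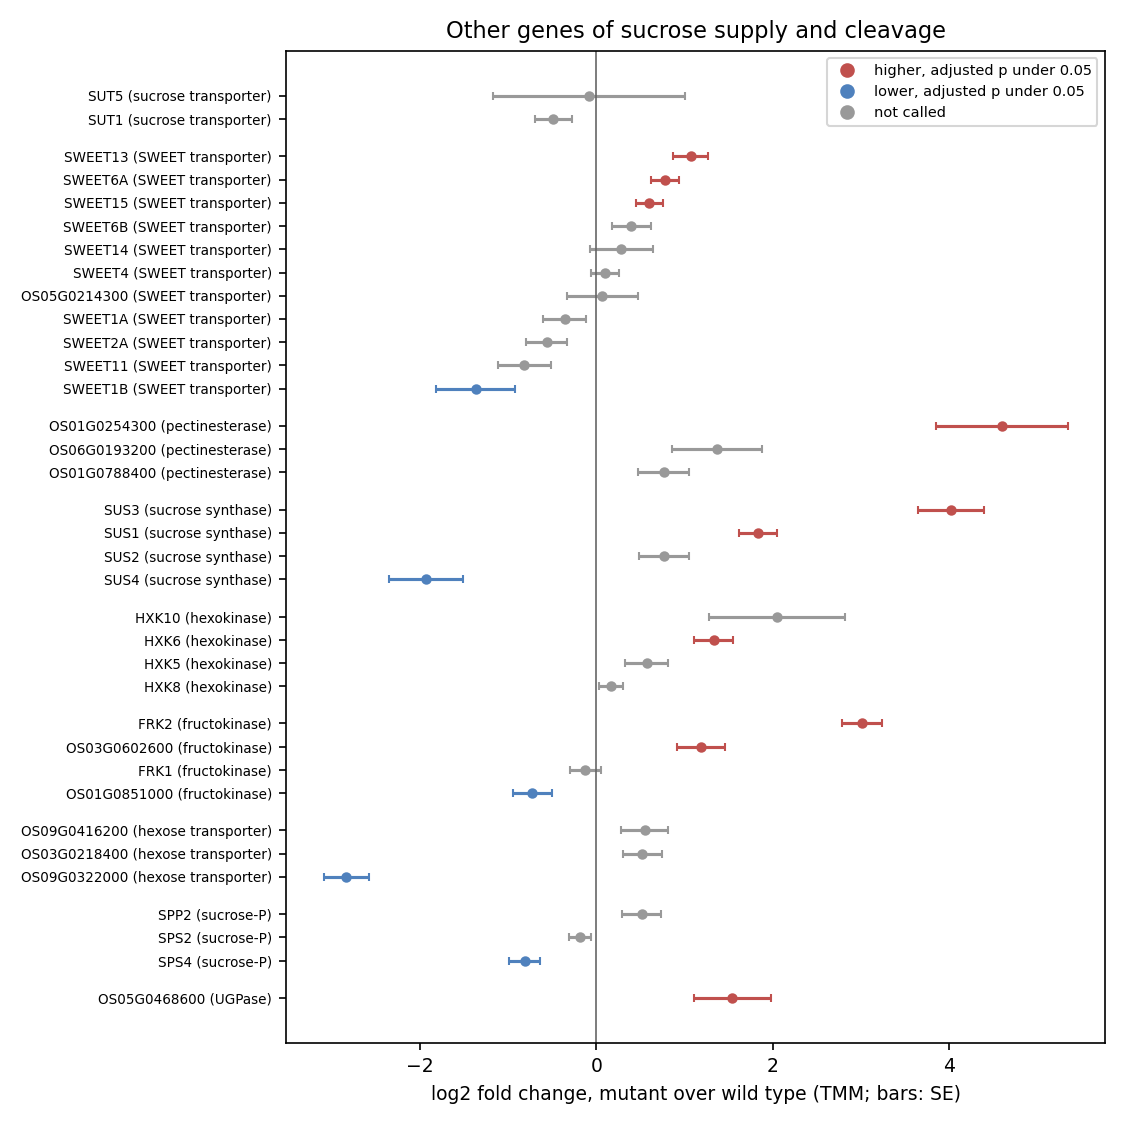
Log2 fold change, mutant over wild type, with its SE (TMM scaling) of the 35 tested rows found by description, grouped by role. Rows called higher are in red, called lower in blue and not called in grey. They include 3 pectinesterase rows, 1 of which is among the rises. The 10 rises include FRK2 (3.01) and HXK6 (1.33), and the 5 falls include OS09G0322000 (-2.83).

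Genes with the most similar profile were sought among 3313 tested rows that carry a description, by the root mean square difference of log2 normalized CPM over the 6 libraries after each profile had been centred on its own mean. For CIN2 the nearest was OS04G0602100, a thylakoid lumenal protein of 29 kDa (difference 0.16), followed by CPS1 (0.16), MADS5 (0.19), BGLU5 (0.19) and GRXC10 (0.20). For CINV1 the nearest were APX1, a cytosolic ascorbate peroxidase, and OS07G0577700, a subunit of succinyl-CoA ligase (difference 0.04 each), then OS02G0465400, ARF25 and OS02G0826100 (0.06 each). The log2 fold changes of these 5 were 0.81 to 0.95, near the 0.86 of CINV1, which the choice by likeness of profile fixes. Nearness in 6 libraries describes these profiles only.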

How the data were processed

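The authors deposited 1 table with, per the file headers, raw read counts and FPKM per row and library. The submitters' processing notes list Bowtie 0.12.2. The sources used here do not give the counter, annotation, genome build or use of strand, so values of overlapping genes are uncertain. The deposited counts are whole and not normalized, and the deposited FPKM values are scaled to length and library total.

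Counts kept by filterByExpr (22937 of 91080 rows) were tested with edgeR 4.0.16 in R 4.3.3 (TMM scaling, estimateDisp, glmQLFit, glmQLFTest, line as the only term), adjusted by Benjamini-Hochberg over all rows and called under 0.05. An SE is the absolute log2 fold change over the square root of F. Normalized CPM use the TMM-scaled library sizes. The test was also run on simulated counts. Apart from a set of changed genes, all simulated libraries had a common mean profile and a fixed spread. The simulation therefore does not cover libraries whose storage share differs as widely as here. Within each line every pair of libraries differed beyond counting error (chi-square of 10.9 to 366 per gene), and all were kept as separate replicates. In the main fit replicate numbers were not used to pair the lines. No genome, sequence table or sequence was used, and a reference table gave names only.

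Alternatives were other scalings and filters, the DESeq2 1.42.0 Wald test, limma 3.58.1 (voom, and log2 of FPKM plus 1 or 0.1), an adjusted p under 0.01, a replicate block and each library left out. Named genes are all members, up to 3 per pathway list with the smallest adjusted p, and the 5 nearest profiles of CIN2 and of the member with the smallest adjusted p. FRK1 and SWEET11 were added after their values were seen, as were the pairs of members other than CIN1 and CINV1. SWEET1B, the remaining called SWEET row, was also named beyond the limit of 3 per list. The members and lists were chosen with earlier results of these data known. Figures were drawn with matplotlib 3.10.9.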

Additional observations from a re-analysis of the deposited data

How the results depend on the processing

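CINV1 was called higher in all 17 alternatives, and CIN1 and CIN7 stayed positive in all 17. The number of called features, 7148, was 17344 with total-count scaling, 12079 with that scaling after storage rows were removed, 15444 and 16988 with limma on log2(FPKM + 1) and log2(FPKM + 0.1), 3364 at an adjusted p under 0.01, and 4012 to 8328 with 1 library left out. Members called higher, 1 in the report, numbered 5 with total-count scaling, 3 without storage rows, 4 and 3 with limma on FPKM (plus 1 and plus 0.1), 2 without a low-count filter, with a mean of at least 5 CPM and with DESeq2, and 1 to 3 with a library left out. Members called lower, 2 in the report, numbered 0 in both total-count scalings, both limma fits on FPKM, without a filter, at an adjusted p under 0.01 and with the replicate block, 1 with DESeq2, and 0 to 2 with a library left out.

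Directions turned as follows, in the order total count, total count without storage rows, and limma on FPKM plus 1 and plus 0.1. CIN2 was at log2 fold changes of 1.11, 0.49, 0.75 and 0.81, CIN4 at 1.19, 0.60, 0.55 and 1.01, NIN1 at 0.68, 0.11, 0.58 and 0.66, and NIN3 at 0.64, 0.059, 0.52 and 0.59. CIN4 was also at 0.093 without a filter. With a library left out, CIN2 ranged from -0.69 to 0.10 and CIN4 from -0.26 to 0.28. The causes were not tested.

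With the replicate number as a block, CINV1 kept its call (log2 fold change 0.84, edgeR adjusted p = 0.02) while NIN1 (0.061) and NIN3 (0.063) lost theirs, leaving 1 member called higher. Deviations of same-numbered libraries correlated at 0.07, -0.04 and -0.03 across 22937 genes. Those of libraries with different numbers correlated at -0.06 to 0.08. Whether same-numbered libraries had a batch in common was not tested. By summed counts the cell wall share was 38.9% in the mutant and 39.3% in wild type, and the neutral share 61.1% and 60.7%. The CIN1 over CINV1 difference kept its sign, between -0.57 and -0.23 with a library left out. Depth limits CIN3 and CIN6, with 1 and 5 counts in all.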
